A study of Mus musculus with 4 samples.

Results

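The 72 h dye-swap pair of this series set microRNA (miRNA) levels of mouse activated T cells that had received FoxP3 by transduction against those of activated T cells given only the control vector. It consists of 2 of the 4 arrays of the series, those labelled 72hr, chosen by that label and by no measured value. All 171 miRNA probes of the 178 probes in the deposited table were taken, and the 7 control RNAs (3 small nuclear RNAs and 4 tRNAs), whose IDs hold "RNA", were kept apart. Total RNA of both populations was hybridised together to each 2-colour array. Foxp3 RNA carried Cy5 on replicate 1 and Cy3 on replicate 2, and the control RNA carried the other dye. The other 2 arrays held the same 2 populations at 96 h. The sources used here do not give strain, age, T cell subset, activation, the kind of vector, the number of mice or cultures, or the share of cells that carried Foxp3. The 2 arrays share their RNAs, so the pair is 1 replicate, and the values below are descriptions with no test. Their number limits the precision of every value.

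Regulatory T cells, which restrain other immune cells, are defined by the transcription factor Foxp3, and forcing its expression in activated T cells models part of their programme. A miRNA is a short RNA that guides Argonaute to messenger RNAs, mostly through its seed, the bases near its 5′ end, and lowers their output. Relatives with 1 seed form a family and share many targets. In T cells, miR-155 and the miR-17-92 cluster accompany activation and growth, while miR-150, miR-26 and let-7 are typical of resting lymphocytes. Foxp3 messenger RNA is not measured on a miRNA array, and a ratio gives no level, so neither the transduction nor the T cell identity can be checked on these values.

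Each value is a log ratio of the 2 channels of an array, taken as base 2, and its direction is not settled by the labels. It was read in 2 ways. In the Cy5 over Cy3 reading, the sign of the array with Foxp3 in Cy3 is turned, and the log2 ratio of Foxp3 over control is the deposited value with Foxp3 in Cy5 minus that with Foxp3 in Cy3, divided by 2. This reading is given first because Cy5 was channel 2 on every array. In the already turned reading, the authors would have turned the values to Foxp3 over control before deposit, and the ratio is the mean of the 2 deposited values. All 4 sample titles name Foxp3 before the control, whichever dye it carried, without saying that this is the ratio. What one reading takes as the effect of Foxp3, the other takes as a difference that stayed with the dye.

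The sequences that the results turn on are the mature miRNAs of families whose probes lay at the edges of the pair, taken from RefSeq on build GRCm38.p6. The probe sequences of the array were not used here, and arms were assigned by the usual meaning of a miRNA name without a suffix. Capitals mark the seed, bases 2 to 8, and U stands as in the RNA. The let-7 family, largely lower with Foxp3 in the Cy5 over Cy3 reading, shares the seed GAGGUAG.
let-7a-5p: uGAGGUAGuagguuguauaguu (chr13:48538239-48538260, minus strand)
let-7b-5p: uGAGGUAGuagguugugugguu (chr15:85707325-85707346, plus strand, within the span of the lncRNA gene Lncppara)
let-7c-5p: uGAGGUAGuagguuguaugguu (chr15:85706616-85706637, plus strand, within Lncppara, and chr16:77599672-77599693, plus strand)
let-7d-5p: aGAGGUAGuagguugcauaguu (chr13:48536078-48536099, minus strand)
let-7e-5p: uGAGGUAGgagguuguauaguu (chr17:17830366-17830387, plus strand, within the span of Spaca6)
let-7f-5p: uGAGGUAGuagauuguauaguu (chr13:48537889-48537910, minus strand, and chrX:151912353-151912374, plus strand, within the span of Huwe1)
let-7g-5p: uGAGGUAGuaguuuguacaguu (chr9:106178846-106178867, plus strand, within the span of Wdr82)
let-7i-5p: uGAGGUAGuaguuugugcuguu (chr10:122985698-122985719, minus strand)
miR-98-5p: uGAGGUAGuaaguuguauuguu (chrX:151913229-151913250, plus strand, within the span of Huwe1)

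The miR-15/16 family shares the seed AGCAGCA and diverges behind it. It is shown because its members split between lower values and values near 0.
miR-15a-5p: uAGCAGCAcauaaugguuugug (chr14:61632075-61632096, minus strand, within the span of the lncRNA gene Dleu2)
miR-15b-5p: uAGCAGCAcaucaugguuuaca (chr3:69009775-69009796, plus strand, within the span of Smc4)
miR-16-5p: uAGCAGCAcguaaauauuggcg (chr3:69009918-69009939, plus strand, within Smc4, and chr14:61631936-61631957, minus strand, within Dleu2)
miR-195a-5p: uAGCAGCAcagaaauauuggc (chr11:70235062-70235082, plus strand)

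The pair of miR-221 and miR-222, the lowest group in the Cy5 over Cy3 reading, shares the seed GCUACAU and lies together on the X chromosome.
miR-221-3p: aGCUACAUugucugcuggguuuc (chrX:19146307-19146329, minus strand)
miR-222-3p: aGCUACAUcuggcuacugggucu (chrX:19146901-19146923, minus strand)

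The miR-200 family holds the 3 highest probes of the already turned reading, and its 2 seeds differ at 1 base.
miR-200a-3p: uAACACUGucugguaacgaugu (chr4:156054911-156054932, minus strand, within the span of the lncRNA gene Gm13648)
miR-200b-3p: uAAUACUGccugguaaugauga (chr4:156055685-156055706, minus strand, within Gm13648)
miR-200c-3p: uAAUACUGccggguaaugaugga (chr6:124718324-124718346, minus strand)
miR-141-3p: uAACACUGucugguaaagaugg (chr6:124717917-124717938, minus strand)

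The 3 highest probes of the Cy5 over Cy3 reading stand for single miRNAs with unrelated seeds.
miR-31-5p: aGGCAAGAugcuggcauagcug (chr4:88910614-88910635, minus strand, within the span of the lncRNA gene Gm49890)
miR-155-5p: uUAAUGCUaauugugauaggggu (chr16:84714143-84714165, plus strand, within the span of its host lncRNA gene Mir155hg)
miR-22-3p: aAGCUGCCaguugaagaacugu (chr11:75463772-75463793, plus strand, within the span of its host lncRNA gene Mir22hg)

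The deposited values of the pair were mostly negative and similar on both arrays. With Foxp3 in Cy5 they ran from -2.24 to 2.36 with a median of -0.59, and with Foxp3 in Cy3 from -2.27 to 2.43 with a median of -0.83. Of the 171 probes, 108 lay below 0 on both arrays, 14 above 0 on both, 22 above 0 with Foxp3 in Cy5 only, 26 above 0 with Foxp3 in Cy3 only, and 1 was exactly 0 on an array. Across the probes, which are not independent and share both RNAs, Pearson's r was 0.66 and Spearman's rho 0.68. Of the summed variance of both readings over the probes, 83.0% was that of the already turned reading and 16.98% that of the Cy5 over Cy3 reading. U6 and the 4 tRNAs had a median of -0.27 on the first array and -0.34 on the second, above the miRNA medians on both. In the Cy5 over Cy3 reading the miRNA ratios had a median of 0.075, an SD over probes of 0.33 and a range from -0.90 to 1.25. In the already turned reading they had a median of -0.67, an SD of 0.73 and a range from -1.94 to 2.40.

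**Figure D1:**
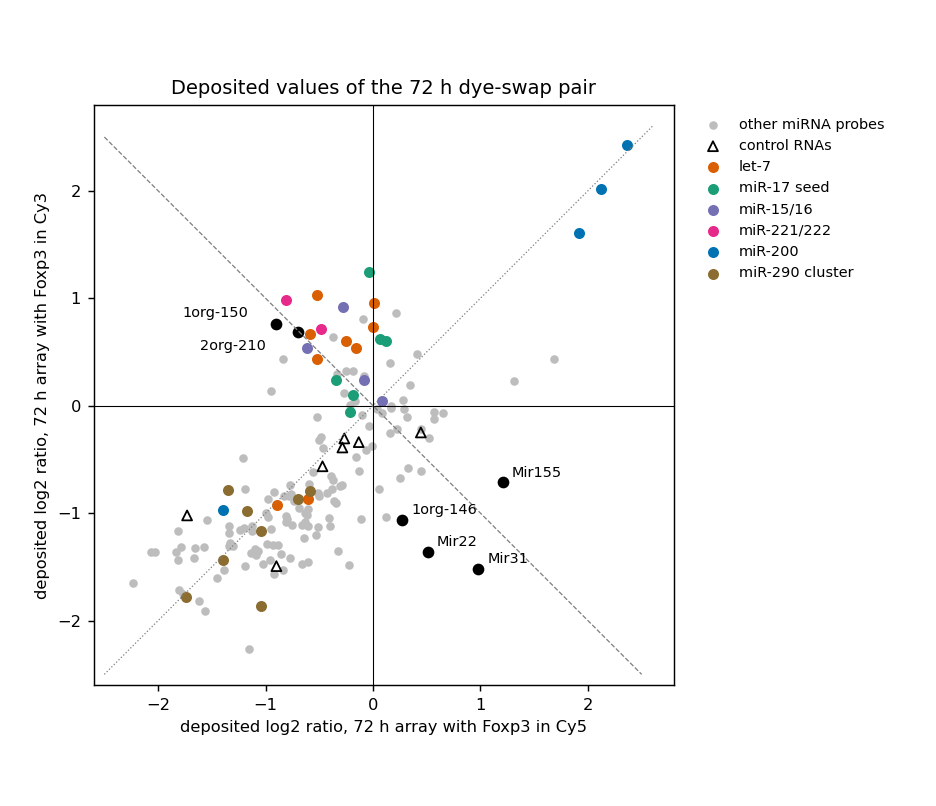
Deposited log2 ratio of each of the 171 miRNA probes (dots) and 7 control RNAs (triangles) at 72 h with Foxp3 labelled by Cy5 (x) and by Cy3 (y); the dotted line marks equal values and the dashed line equal values of opposite sign. Most probes lie below 0 on both arrays, 3 miR-200 probes stand at the upper right, most let-7 probes and those of miR-221 and miR-222 lie at the upper left, and Mir31, Mir155, Mir22 and 1org-146 at the lower right.

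In the Cy5 over Cy3 reading, the highest ratios with 1 sign on both arrays were those of Mir31, Mir155 and Mir22 and the probe 1org-146. Mir31 (probe 1org-31) targets Foxp3 in T cells and is listed below as less abundant in regulatory T cells. It had deposited values of 0.98 with Foxp3 in Cy5 and -1.52 with Foxp3 in Cy3. It was thus high where Foxp3 carried Cy5 and low where the control carried Cy5, at a log2 ratio of 1.25 ± 0.38 (SD, n = 2 arrays), or 2.38-fold. Mir155 (1org-155), which activation induces and which sustains regulatory T cells by repressing Socs1, stood at 1.21 and -0.71, giving 0.96 ± 0.35 (SD, n = 2 arrays). Mir22 (1org-22) stood at 0.51 and -1.36, giving 0.93 ± 0.60 (SD, n = 2 arrays). Probe 1org-146, whose ID carries the number of a miRNA that restrains NF-kB signalling through Traf6 and Irak1, stood at 0.27 and -1.06, giving 0.67 ± 0.56 (SD, n = 2 arrays). In all 4 the deposited values of the arrays lay on opposite sides of 0, which the choice by 1 sign on both turned arrays requires. These 4 were the probes past 1.5-fold (a log2 ratio of 0.585) with 1 sign on both turned arrays on the higher side, 2.34% of the 171. The already turned reading of the same values gave -0.27 for Mir31, 0.25 for Mir155, -0.42 for Mir22 and -0.40 for 1org-146.

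On the lower side of the same reading stood 9 probes, 5.26% of the 171, so that 7.6% passed in either direction. The lowest was 2org-222, whose number is that of a repressor of the cell cycle inhibitor p27 and of Kit, with deposited values of -0.81 and 0.98 and a log2 ratio of -0.90 ± 0.12 (SD, n = 2 arrays). Probe 1org-150, with the number of a miRNA abundant in resting lymphocytes that represses Myb, had -0.90 and 0.76, or -0.83 ± 0.10 (SD, n = 2 arrays). Probe 2org-210, with the number of a hypoxia-induced miRNA, had -0.70 and 0.69, or -0.69 ± 0.007 (SD, n = 2 arrays). For these 3 probes the 2 arrays gave nearly equal values of opposite sign as deposited, which depends on where 0 lies on each array. After the miRNA median of each array was subtracted, the turned values with Foxp3 in Cy5 and in Cy3 were farther apart. They were -0.222 and -1.807 for 2org-222, -0.311 and -1.585 for 1org-150, and -0.111 and -1.515 for 2org-210. Mirlet7g followed with -0.52 and 1.03, or -0.77 ± 0.36 (SD, n = 2 arrays). Mir20a, of the miR-17-92 cluster that represses Bim, had a mean of -0.64 that came almost wholly from 1 array, with -0.034 and 1.24 deposited. The remaining 4 were 1org-26a at -0.64, Mirlet7i at -0.63, 2org-221 at -0.60 and Mir15b at -0.60. The already turned ratios of the 9 ran from -0.20 (1org-26a) to 0.60 (Mir20a).

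These counts rest on both arrays and on the centring. Read from 1 array, 72.5% of the probes passed without replicate 1 (61.4% higher, 11.1% lower) and 55.0% without replicate 2 (4.68% higher, 50.3% lower). After the miRNA median of each array was subtracted, 8 passed, or 4.68%. On the higher side (1.17%) these were Mir31 at 1.13 and Mir22 at 0.81. On the lower side (3.51%) they were 2org-222, 1org-150, 2org-210, 1org-26a, Mir15a and Mir26b. Of the 8, 6 were among the 13. Mir155, 1org-146, Mirlet7g, Mirlet7i, Mir20a, 2org-221 and Mir15b then lacked 1 sign on both arrays or, for 1org-146, the size.

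**Figure D2:**
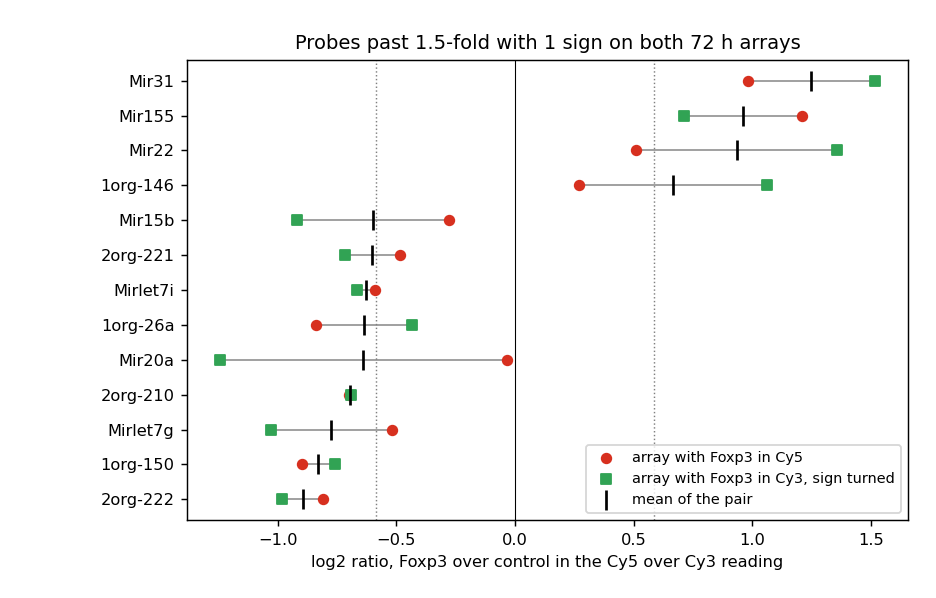
Log2 ratio of Foxp3 over control in the Cy5 over Cy3 reading (x) of the 13 probes past 1.5-fold with 1 sign on both 72 h arrays (y); circles are the array with Foxp3 in Cy5, squares the array with Foxp3 in Cy3 with its sign turned, bars their mean, and dotted lines 1.5-fold. Without centring, as shown, the 2 arrays nearly coincide for 2org-210, 1org-150, 2org-222 and Mirlet7i and lie farthest apart for Mir20a.

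The highest ratios of the already turned reading belonged to the miR-200 family, which holds cells in an epithelial state by repressing Zeb1 and Zeb2. Probe 1org-200a had deposited values of 2.36 and 2.43, 1org-200b 2.12 and 2.02, and 2org-200c 1.92 and 1.60. Their log2 ratios were 2.40 ± 0.047, 2.07 ± 0.078 and 1.76 ± 0.22 (SD, n = 2 arrays), or 5.27, 4.20 and 3.39-fold higher. The 3 were the highest on both arrays, whichever dye Foxp3 carried. Probe 1org-141, which carries the number of the fourth relative and whose miRNA has the seed of miR-200a, lay at -1.40 and -0.98, or -1.18, away from the other 3. In the Cy5 over Cy3 reading the 4 stood at -0.033, 0.055, 0.16 and -0.21, none past 1.5-fold. Next were Mir99b, with 1.69 and 0.43 deposited and a ratio of 1.06, and Mir206, a muscle miRNA, with 1.32 and 0.23 and a ratio of 0.77. These 5 were 2.92% of the 171 probes.

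On the lower side of the already turned reading 91 probes passed, 53.2% of all, so a count of lower members near that share is no result about a group, and 56.1% passed in either direction. The lowest was Mir302a, of a cluster specific to pluripotent cells, with -2.24 and -1.65 deposited and a ratio of -1.94. Mir294, of another pluripotency cluster, followed at -1.76, 2org-217, with the number of a pancreatic miRNA, at -1.76, Mir10a, encoded in a Hox cluster, at -1.76, and 2org-199a at -1.74. Probes 1org-122a at -1.72, 1org-9 and 1org-9* at -1.71, 2org-211 at -1.70 and 2org-95 at -1.62 completed the 10 lowest. In the Cy5 over Cy3 reading these 10 lay between -0.35 (1org-9) and 0.55 (1org-9*). After subtraction of the miRNA medians, the already turned reading gave 51 higher probes (29.8%) and 25 lower ones (14.6%), 44.4% in all, so its split rests on the offset of the arrays.

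The let-7 family restrains growth genes such as Lin28 and Myc and stood low as a group in the Cy5 over Cy3 reading. Its 9 probes ran from -0.77 to 0.13 with a median of -0.43, against 0.075 over all probes. Of the 9, 7 lay below 0, where 40.4% of all probes did, and 2 passed 1.5-fold, both lower, where 5.26% of all probes did. These shares are an unlike baseline, because 7 of the 9 had an already turned ratio above the median of all probes. Of the 74 probes with an already turned ratio at or above -0.5, 40 lay below 0 in the Cy5 over Cy3 reading. All passing probes of that reading were among the 74. On the array with Foxp3 in Cy5, the 9 lay between -0.89 and 0.006 with a median of -0.52, near the -0.59 of all miRNA probes. With Foxp3 in Cy3 they lay between -0.92 and 1.03 with a median of 0.60, against -0.83 for all miRNA probes. Set beside the other probes of each array, the family thus stood apart mainly on the array with Foxp3 in Cy3. The 7 below 0 ran from 1org-7f at -0.34 and Mirlet7d at -0.36 through Mirlet7b at -0.43, 1org-7a at -0.47 and 1org-7c at -0.48 to Mirlet7i at -0.63 and Mirlet7g at -0.77. Mirlet7e at 0.13 and Mir98 at 0.014 stood apart from these, and were also the 2 members below 0 on both arrays, -0.61 and -0.87 for Mirlet7e and -0.89 and -0.92 for Mir98.

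Counted from 1 at the 5′ end, mature let-7e differs from let-7a by U9G alone, and miR-98 by G11A and A19U. Let-7c and let-7f also differ from let-7a by 1 base each, A19G and G12A, and their probes stood at -0.48 and -0.34, beside -0.47 for 1org-7a. The lowest probes, those of Mirlet7g and Mirlet7i, share the differences G12U and U18C. Probes for miRNAs this similar may bind one another's RNA, so the 9 values are not independent. Read as already turned, the family had a median of 0.18, with 6 of 9 above 0, and Mirlet7e and Mir98 as the lowest at -0.74 and -0.91.

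The miR-15/16 family, which represses Bcl2 and cyclins, had a median of -0.37 over 4 probes, all below the median of all probes. Mir15a had deposited values of -0.61 and 0.54 and a ratio of -0.57, and Mir15b -0.28 and 0.92 and a ratio of -0.60. Probe 1org-16, with -0.087 and 0.24, lay at -0.16, and Mir195a, with 0.082 and 0.043, at 0.020. The 2 lower values belonged to the members named 15, which differ from each other at 4 bases, and the 2 values nearer 0 to miR-16 and miR-195a, which each differ from miR-15a at 6 bases of those compared. Mir15a is encoded beside a copy of miR-16 and Mir15b beside the other copy. The already turned reading put the 4 between -0.035 and 0.32. On the single arrays their median was -0.18 with Foxp3 in Cy5 and 0.39 with Foxp3 in Cy3, above the -0.59 and -0.83 of all miRNA probes.

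The miR-17 seed family, which promotes lymphocyte growth, lay below 0 with all of its 6 probes in the Cy5 over Cy3 reading, where 40.4% of all probes did. They ran from -0.64 (Mir20a) to -0.078 (1org-106a) with a median of -0.26, and 1 of the 6 passed 1.5-fold, against 5.26% of all probes on the lower side. All 6 had an already turned ratio above the median of all probes, so these shares are an unlike baseline here too. By cluster, the miR-17-92 probes were not alike, with 2org-17-5p at -0.24, Mir18 at 0.09, Mir19a at -0.29, Mir20a at -0.64, 1org-92 at -0.12 and 2org-17-3p, the other arm of the miR-17 hairpin, at 0.18. All 3 probes of the miR-106b-25 cluster, a paralogue within the span of Mcm7, lay below 0, at -0.14 for 1org-106b, -0.29 for Mir93 and -0.32 for Mir25. The already turned reading put the medians of the seed family at 0.15 and of the miR-17-92 cluster at 0.18. On the single arrays the seed family had a median of -0.11 with Foxp3 in Cy5 and 0.42 with Foxp3 in Cy3. Both were above the -0.59 and -0.83 of all miRNA probes.

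Probes 2org-221 and 2org-222 had a median of -0.75 and both passed 1.5-fold, where 5.26% of all probes passed lower. Both had an already turned ratio above the median of all probes, so that share is an unlike baseline. With Foxp3 in Cy5 they lay at -0.48 and -0.81, and with Foxp3 in Cy3 at 0.72 and 0.98. The medians of all miRNA probes on these arrays were -0.59 and -0.83. Past their shared seed the 2 miRNAs differ at 12 of 23 bases. The miR-26 pair, which represses Ezh2, came next with 1org-26a at -0.64 and Mir26b at -0.54, from -0.84 and -0.95 with Foxp3 in Cy5 and 0.43 and 0.14 with Foxp3 in Cy3. The already turned reading gave 0.10 for the median of the first pair and -0.30 for that of miR-26.

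Other T cell families lay nearer 0 or were split. The 3 probes of miR-142, which marks blood cells, split, with 1org-142-as at -0.51 and 2org-142* at -0.45 against 1org-142-s at 0.63. The deposited values of 1org-142-s were -0.22 and -1.48, and those of 1org-142-as -0.37 and 0.64, so they differed mainly on the array with Foxp3 in Cy3. The miR-181 probes, whose miRNAs tune T cell receptor signalling, ran from -0.11 to 0.15, and the miR-29 probes, whose miRNAs restrain interferon gamma, from 0.034 to 0.16. The miR-30 probes spread from -0.32 (1org-30c) to 0.35 (1org-30a). The miR-23/27/24 probes had a median of 0.18, led by 1org-24 at 0.45 and Mir23a at 0.31, with 4 of 5 above 0, where 59.6% of all probes were. The probes of miR-96, miR-182 and miR-183, whose cluster responds to interleukin 2, were all above 0, at 0.46 for 1org-183, 0.16 for Mir182 and 0.13 for Mir96. None of the probes of the last 5 groups passed 1.5-fold on both arrays in the Cy5 over Cy3 reading, where 7.6% of all probes did. Read as already turned, 2 miR-30 probes and 1 probe each of miR-181, miR-29 and the group of miR-96, miR-182 and miR-183 passed lower, where 53.2% of all probes did, and 0 of the miR-23/27/24 probes did. The medians of that reading were -0.53 for miR-30, -0.11 for miR-181, 0.004 for miR-29, -0.13 for miR-23/27/24 and -0.53 for the last group.

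**Figure D3:**
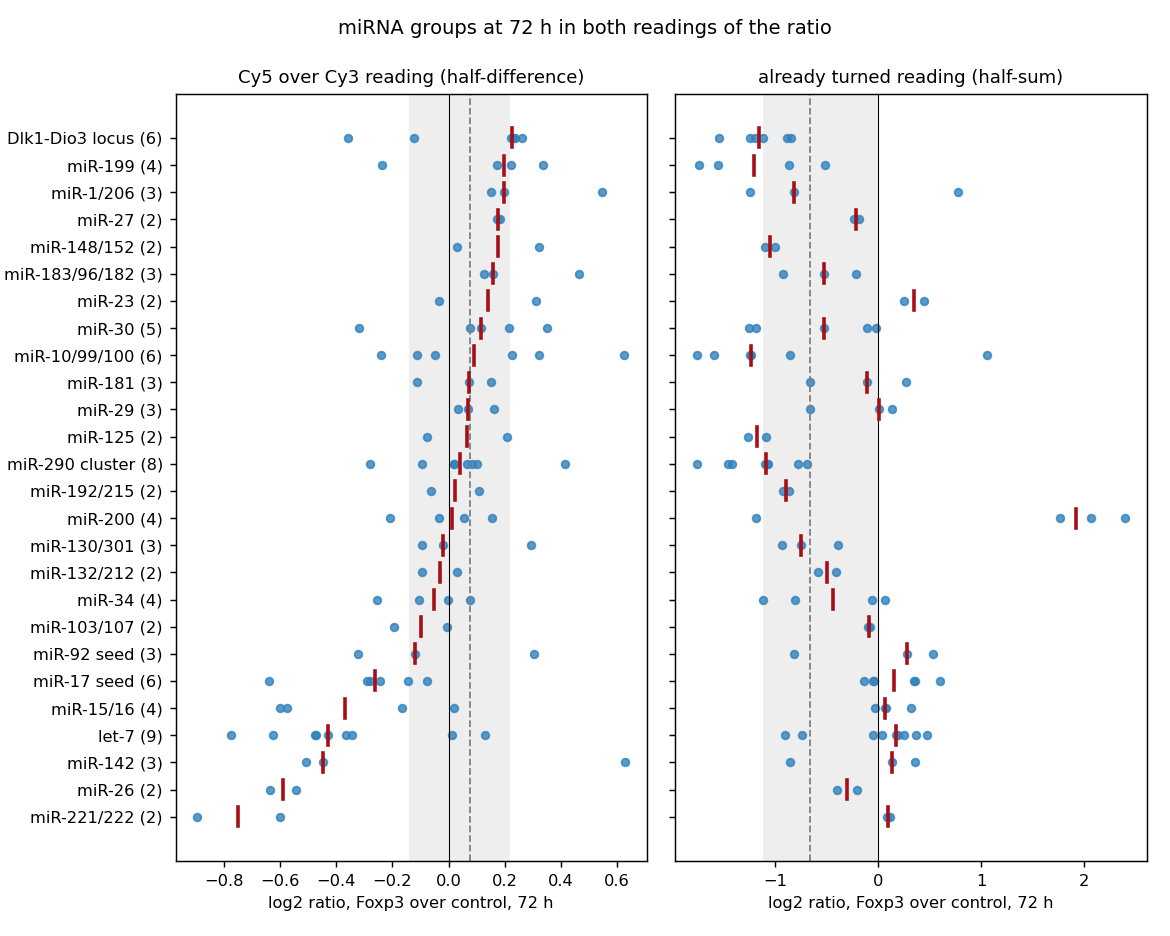
Log2 ratio of Foxp3 over control at 72 h (x) of every probe (dots) of 26 miRNA groups (y, number of probes in brackets) in the Cy5 over Cy3 reading (left) and the already turned reading (right, wider scale); red bars are group medians, the dashed line the median of all 171 probes and the grey band their interquartile range. At the left, the pair of miR-221 and miR-222, miR-26, miR-142, let-7, miR-15/16 and miR-17 seed have the lowest medians, and at the right 3 of the 4 miR-200 probes lie above all others.

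In most groups the members spread less than all probes did. Of the 17 groups with at least 3 probes, 16 had a smaller SD among members than the 0.33 of all probes in the Cy5 over Cy3 reading, with miR-142 at 0.64 as the exception. That 0.33 covers unlike probes. The SD was 0.205 for the 97 probes with an already turned ratio below -0.5 and 0.436 for the 74 others. Of the groups wholly among the 97, the Dlk1-Dio3 locus had 0.258, miR-199 0.25 and the miR-290 cluster 0.195. For the already turned reading 14 of 17 had a smaller SD than 0.73, the exceptions being miR-200 at 1.65, miR-1 with miR-206 at 1.06 and miR-10 with miR-99 and miR-100 at 1.03. In each of those 3, 1 member or more stood at the upper end (the 3 miR-200 probes, Mir206 and Mir99b). There were 7 sets of at least 3 probes whose mature sequences share bases 2 to 8, each within 1 of the 17 groups. All 7 had a smaller SD than all probes in the Cy5 over Cy3 reading. That does not carry over to the already turned reading for every set. There the set of Mir99a, Mir99b and 2org-100 spanned 2.3, from -1.24 (Mir99a) to 1.06 (Mir99b). There were 10 pairs of forms with 1 number (2 arms, or a star form), with a median distance of 0.29 in that reading and 0.43 in the already turned one. Of the 10, 5 lay on opposite sides of 0 in the Cy5 over Cy3 reading, one of them with 1org-126* at 0.001. The widest there were 1org-142-as and 1org-142-s, with a difference of -1.14, and 1org-9 and 1org-9*, with -0.91. Both 1org-9 and 1org-9* stood at -1.71 when read as already turned, and 1org-142-as and 1org-142-s differed by 0.99.

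The lists of T cell miRNAs were described by the number in the probe ID. Their members were chosen with earlier results of these data known, so their counts are no independent support. All 4 higher and all 9 lower passing probes had an already turned ratio above the median of all probes, which the passing rule largely fixes. So did 8 of the 10, 18 of the 21 and 13 of the 16 probes of the lists below. The shares of all probes are thus an unlike baseline for these lists. Of the 10 probes with numbers of miRNAs higher in regulatory T cells, 7 lay above 0 in the Cy5 over Cy3 reading, where 59.6% of all probes did, with a median of 0.32 and a range from -0.21 (2org-223) to 0.96 (Mir155). Of these 10, 3 passed 1.5-fold, all higher (Mir155, Mir22 and 1org-146), against 2.34% of all probes. Of the 4 probes with numbers of miRNAs lower in regulatory T cells, 1 passed, also higher (Mir31), and 0 passed lower. Of the 21 probes of miRNAs reduced by activation, 14 lay below 0, where 40.4% of all probes did, with a median of -0.32. Of the 21, 4 passed, all lower (1org-150, 1org-26a, Mirlet7g and Mirlet7i), against 5.26% of all probes. Of those 21, 9 carry a let-7 number (1org-7d* included), so this list is in large part that family. Of the 16 probes of miRNAs induced by activation, 10 lay above 0, where 59.6% of all probes did, with a median of 0.11. Of the 16, 2 passed higher (Mir31 and Mir155), against 2.34% of all probes, and 2 lower (Mir20a and 2org-210), against 5.26%. The 3 medians, read as already turned, were -0.16, -0.019 and -0.11, and 2, 4 and 4 probes passed lower, against 53.2% of all probes. None of them passed higher, where 2.92% of all probes did.

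Probes of miRNAs typical of other cell types were set beside them. Over 8 lists (embryonic stem, epithelial, stromal or endothelial, neural, muscle, liver or pancreas, myeloid and erythroid) there were 43 probes. In the Cy5 over Cy3 reading they lay between -0.35 and 0.55 with a median of 0.076, against 0.075 for all probes, and 0 of the 43 passed 1.5-fold on both arrays, where 7.6% of all probes did. Of the 97 probes of any kind with an already turned ratio below -0.5, 0 passed in the Cy5 over Cy3 reading. The passing rule largely fixes this. To have 1 sign on both turned arrays, a Cy5 over Cy3 ratio must exceed the already turned ratio in size. Only 6 of the 43 had an already turned ratio above -0.5, so their count of 0 is no result about other cell types. When read as already turned, their median was -1.15, against -0.67 for all probes and 0.033 for the 8 probes of T cell miRNAs, and 38 of the 43 lay below 0, where 75.4% of all probes did. All 9 embryonic stem, 5 liver and pancreas and 8 neural probes lay below 0 there. The 5 above 0 were the 3 miR-200 probes, Mir206 and 2org-214. On the single arrays the medians of the 43 were -1.10 with Foxp3 in Cy5 and -1.17 with Foxp3 in Cy3. Their medians were thus similar on both arrays, whichever dye Foxp3 carried. The part of dye or of signal strength in this was not tested.

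**Figure D4:**
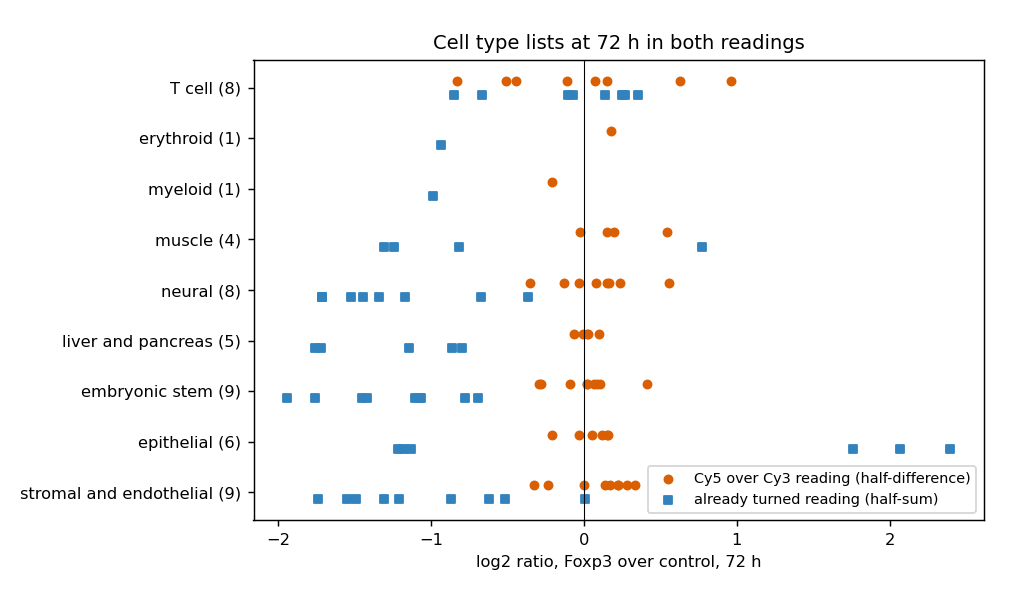
Log2 ratio of Foxp3 over control at 72 h (x) of probes of miRNAs typical of T cells and of 8 other cell types (y, number of probes in brackets), with circles for the Cy5 over Cy3 reading and squares for the already turned reading. The squares of other cell types lie mostly below 0, except 3 epithelial miR-200 probes, Mir206 and 2org-214, while the circles lie around 0 and those of T cell miRNAs spread from -0.83 to 0.96.

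Sequence composition of the mature miRNAs was set beside the ratios. Over 102 probes with a matched RefSeq sequence, which share arrays and RNAs, GC content ran from 30% to 63.6%. It correlated with the Cy5 over Cy3 ratio at r = 0.16 (rho 0.17) and with the already turned ratio at r = 0.048 (rho 0.033). The share of U gave r = -0.21 (rho -0.12) and -0.12 (rho -0.047), and length r = -0.11 (rho -0.20) and 0.094 (rho 0.11). The 70 miRNAs that begin with U had a median of 0.021 in the first reading, the 18 that begin with A 0.13, and the 12 that begin with C -0.069. Their already turned medians were -0.47, -0.19 and -0.096.

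At 96 h, on arrays that did not enter the choice of probes, 11 of the 13 probes past 1.5-fold at 72 h in the Cy5 over Cy3 reading had a mean on the same side, 3 of 4 higher and 8 of 9 lower, where 74.3% of all probes lay above 0 and 25.7% below. Of the 13, 4 passed there on that side. From the 4 higher probes only Mir31 did, where 46.2% of all probes passed higher. From the 9 lower ones 2org-222, 2org-221 and Mir20a did, where 5.26% of all probes passed lower. On the opposite side 1 passed, Mir155. The exceptions in the side of the mean were Mir155, at -0.82, and 1org-26a, at 0.075. The median of all probes was 0.80 at 96 h against 0.075 at 72 h, so a value near 0 ranks low there. Of the families, let-7 had a median of -0.27 at 96 h with 6 of 9 below 0, miR-17 seed -0.36 with 6 of 6 below 0, miR-15/16 -0.27 with 3 of 4, the pair of miR-221 and miR-222 -1.99 with both, and miR-26 0.56 with neither. Read as already turned, the median of all probes at 96 h was 0.65, 94.2% lay above 0 and 33.9% passed higher. All 5 higher probes of 72 h passed higher there too, and of the 91 lower ones 82 had a mean above 0 and 9 below 0, so most of the latter lay where nearly all probes lay. Each time point is 1 replicate, so the difference between them was not tested.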

How the data were processed

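The deposited values are log2 ratios as taken here, 1 per probe and array, made by the authors from 2-colour arrays of total RNA. The sources used here name no scanner, background correction, normalization, log base or direction, and only these ratios were analysed. The 2 arrays of 72 h were combined as half-difference (Cy5 over Cy3 reading) and half-sum (already turned reading). A probe passed with 1 sign on both arrays and a mean past 1.5-fold. With 1 replicate no test was made, and SDs are between 2 arrays of the same RNAs.

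Up to 10 passing probes per direction and reading were named, with all members of the groups. The members and lists were chosen with earlier results of these data known. The platform annotation gave 1 symbol for 61 probes, updated by gene ID for 50 and by synonym for 11, several for 1 and none for 109, which keep their IDs. It lists 1org-34a as Mir34c and 1org-34c as Mir34a. Groups go by the number in the ID, so numbers 7a to 7i count as let-7 and 2org-7, which is ambiguous, does not. Star forms were not treated alike. The let-7 and miR-30 groups and that of miR-96, miR-182 and miR-183 leave out 1org-7d*, 1org-30a* and 2org-182*. The miR-142, miR-199 and miR-290 groups keep their star, as and s forms. Of 113 probes given a RefSeq mature name, 102 matched a sequence. Alternatives were the other reading, centring on the miRNA median or on U6 and tRNA, 2-fold, the mean alone, natural logs, each array left out, and other group membership. Computations used Python 3.11.15 with pandas 2.3.3 and scipy 1.17.1, and the split of the pair was checked on simulated data. That check covers the arithmetic only and cannot tell which reading holds or how noisy these arrays are.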

Additional observations from a re-analysis of the deposited data

Results flagged for a closer look

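Among the probes of the 26 groups and the named probes, Mir155 and Mir26b had both arrays of 72 h on one side of 0 and both arrays of 96 h on the other in the Cy5 over Cy3 reading. Mir155 had a mean of 0.96 at 72 h and -0.82 at 96 h. Mir26b had a mean of -0.54 at 72 h, from -0.95 and -0.14 on the turned arrays, and 1.05 at 96 h, from 1.16 and 0.95. The median of all probes in this reading was 0.075 at 72 h and 0.80 at 96 h, where 74.3% lay above 0. Mir26b thus moved in the direction of that median, and Mir155 against it. Read as already turned, Mir155 stood at 0.25 and 0.58 and Mir26b at -0.40 and 0.10, so Mir155 lay on 1 side at both times in that reading. Only the 15 probes named for the already turned reading were scanned in it, without the other group members. Of its 91 lower probes at 72 h, 16 passed higher at 96 h, where 33.9% of all probes did. The difference between the time points was not tested for either Mir155 or Mir26b.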

How the results depend on the processing

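Of all miRNA probes, 7.6% passed 1.5-fold in the Cy5 over Cy3 reading as deposited, 2.34% higher and 5.26% lower. The already turned reading gave 56.1% (53.2% lower), centring on miRNA medians 4.68% (1.17% higher), and both together 44.4% (29.8% higher, 14.6% lower). A 2-fold threshold left 0.585%, all higher and 0 lower, and reading the values as natural logs gave 14.6%, 5.85% higher and 8.77% lower. Leaving out each array gave 55.0% to 72.5% (4.68% to 61.4% higher, 11.1% to 50.3% lower). Of the 26 groups, 11 had a median below 0, against 17 in the already turned reading, 19 after centring and 11 to 22 without an array. The smaller spread within 16 of 17 groups in the Cy5 over Cy3 reading was seen in 7 of 7 sets sharing a seed in that reading. The already turned reading gave 14 of 17 groups. The 96 h mean was on the same side for 11 of 13 passing probes (84.6%), 14 of 96 in the already turned reading (14.6%), 6 of 8 after centring (75%) and 48 of 76 with both (63.2%). It was so for 13 probes (13.8% of those passing) without replicate 2 and 117 (94.4%) without replicate 1. The GC correlation of 0.156 was 0.048 in the already turned reading, centred or not, and 0.021 to 0.112 without an array. Among named probes and groups past 1.5-fold, the sign turned in the already turned reading for Mir31 (-0.268), Mir22 (-0.423), 1org-146 (-0.396), 2org-222 (0.085), Mirlet7g (0.254), Mir20a (0.604), Mirlet7i (0.039), 2org-221 (0.115), Mir15b (0.32) and the median of miR-221 and miR-222 (0.1). With centring too, it turned for 2org-222 (0.792), 1org-150 (0.637), Mirlet7g (0.962), 2org-210 (0.702), Mir20a (1.312), 1org-26a (0.506), Mirlet7i (0.746), 2org-221 (0.822), Mir15b (1.027) and the medians of miR-26 (0.405) and of miR-221 and miR-222 (0.807). Probes named for the already turned reading that turned in the Cy5 over Cy3 reading were 1org-200a (-0.033), Mir294 (0.02), 2org-199a (0.172), 1org-122a (0.1) and 1org-9* (0.554). Counting medians of any size, 18 of the 26 groups changed sign in the already turned reading, 6 of them from below to above 0, let-7 (0.175), miR-17 seed (0.151), miR-15/16 (0.07), miR-92 seed (0.276) and miR-142 (0.136) among them. With centring too, 18 did, 10 of them upward, with let-7 at 0.882. Centring alone changed 8, and leaving out an array 6 to 13. The cause was not tested. No paired analysis was possible because the values come from no test and the arrays of a time point share their RNAs. Signal over background limits the ratios by an amount that was not analysed here.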

Other observations

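The 8 probes of the miR-290 cluster, which is expressed in pluripotent cells, had a median of 0.042 in the Cy5 over Cy3 reading, from -0.28 (1org-291-s) to 0.41 (Mir293). The 6 probes of the imprinted Dlk1-Dio3 locus had a median of 0.23, from -0.36 (Mir299a) to 0.26 (1org-134), and 0 of either group passed 1.5-fold in that reading. All of them are among the 97 probes with an already turned ratio below -0.5, of which 0 passed in the Cy5 over Cy3 reading. The passing rule largely fixes that 0. Read as already turned, the medians were -1.09 and -1.16 and all 14 probes passed lower, where 53.2% of all probes did. For the 4 probes whose miRNAs are less abundant in regulatory T cells, the median was 0.092 in the Cy5 over Cy3 reading, with Mir31 at 1.25 and 1org-142-as at -0.51 as the extremes. Of these 4, 1 passed 1.5-fold higher (Mir31), against 2.34% of all probes, and 0 lower, against 5.26%. The 10 probes of lymphocyte miRNAs had a median of 0.11 with 6 above 0, where 59.6% of all probes were, and in the already turned reading a median of 0.023 with 5 above 0.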
